A study of Mus musculus with 40 samples.

Results

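The effect of TRAP within synaptoneurosomes was compared between a pair of mouse lines, gene by gene, as a difference of differences. In each line the change from SNF to ST was taken, where SNF is RNA of the synaptoneurosome layer recovered from a density gradient and ST (SynapTRAP) is the RNA captured with tagged ribosomes from that layer, and the change in the VGAT line was subtracted from the change in the RBP4 line. The comparison used 20 of the 40 libraries of the series, 5 in each of 4 groups, and was made over 41351 of 41388 genes, those off the mitochondrial chromosome. Of these, 353 annotated as rRNA or tRNA were left out, and 16779 of the remaining 40998 reached at least 0.5 cpm, the count scaled to the size of the library, in at least 3 of the 20 libraries and were tested.

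All 4 groups came from animals at postnatal day 21 that carried a Cre-dependent EGFP-tagged copy of the ribosomal protein gene Rpl10a. RBP4 TRAP mice switched the tag on with Tg(RBP4-cre)KL100Gsat/Mmcd, a transgene used for layer 5 pyramidal neurons of the cortex, and VGAT TRAP mice switched it on from the Slc32a1 locus (Slc32a1tm2(cre)Lowl/J), in GABAergic neurons of any kind. Each replicate was a small pool of animals of both sexes, from which SNF and ST were collected side by side, so that ST and SNF of a replicate number in a line share a pool. Nothing in the labels or methods ties pools of the lines that have the same number. The labels give the tissue as cortex, whereas the study's methods describe whole forebrain dissections, so that striatal neurons can be among the cells that use the VGAT driver.

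TRAP recovers mRNA by pulling down the tagged large ribosomal subunit, and is meant to sample ribosome-bound mRNA of the cells that express Cre. The study's authors state that it measures ribosome occupancy and cannot tell translating from stalled transcripts. Synaptoneurosomes are pinched-off presynaptic and postsynaptic compartments that keep dendritic mRNA and ribosomes, together with fragments of glia and of other neurons. Somatostatin (Sst) and cortistatin (Cort) are peptide precursors of a class of GABAergic interneurons whose axons contact the dendrites of pyramidal neurons, and neither is a gene of layer 5 pyramidal neurons, so that both served as markers of the VGAT line.

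The mature peptides of Sst and Cort are close relatives, and the part of the coding sequence for the shared core is shown because it bears on whether their counts are separate. The authors counted reads with a single place and a single gene. The windows are read 5′ to 3′ on the coding strand from GENCODE M21 (GRCm38), and capitals mark the bases at which they differ.
Sst, chr16:23889739-23889768, minus strand: ctgcaagaacttcttctggaaGacAttcAc
Cort, chr4:149125277-149125306, minus strand: ctgcaagaacttcttctggaaAacCttcTc
The windows have 27 of 30 bases in common, and both lie in a single coding exon. The Sst window covers coding bases 312 to 341 of 348 and the Cort window 288 to 317 of 327. The longest run of bases that the transcripts of the genes share was 21 bases, and the genes lie on different chromosomes (Sst, ENSMUSG00000004366, at chr16:23889581-23890844 and Cort, ENSMUSG00000028971, at chr4:149125034-149126763).

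The 20 libraries held between 14259535 and 22007698 counts each, of which mitochondrial genes took 2.71% to 41.9%. The shares were highest in replicate 3 of both lines, at 40.2% and 41.9% in SNF and 15.8% and 19.0% in ST, and these replicates also had the highest summed level of astrocyte genes in SNF, 56790 and 52550 cpm against 17990 to 27070 cpm in the other pools. After mitochondrial, rRNA and tRNA genes were left out, between 8950847 and 21252331 counts remained, so that 1 count stood for 0.047 to 0.112 cpm. The ST library of RBP4 replicate 4 went against its label in 1 respect: Slc32a1, the vesicular GABA transporter from whose locus the VGAT driver runs, was at 51.3 cpm there and at 12.03 to 20.8 cpm in ST of the other RBP4 pools. Counts over gene lists that moved without this library are given both ways. Rbp4 itself and Rpl10a were not used to check the labels. The RBP4 driver is a transgene, and Rbp4 in ST was at 10.96 to 38.5 cpm in the RBP4 line and at 22.5 to 64.9 cpm in the VGAT line. The cause of the higher levels in VGAT was not tested. The tag is on a protein whose mRNA was near 1 cpm and has many pseudogene copies, which makes its counts uncertain.

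Each line had a large TRAP effect. From SNF to ST, 2164 genes (12.9% of those tested) rose and 2287 (13.6%) fell in RBP4 TRAP, and 2288 (13.6%) rose and 2463 (14.7%) fell in VGAT TRAP (edgeR's quasi-likelihood test with pool as a block, Benjamini-Hochberg adjusted p of at most 0.05). The lines shared 1656 of the genes that rose, which were 76.5% of the RBP4 and 72.4% of the VGAT genes, and 1639 of those that fell, 71.7% and 66.5%. No gene was called in opposite directions. Over the 13895 genes that averaged at least 1 cpm, Pearson's r between the changes of the lines was 0.85 and Spearman's rho 0.83; these are correlations across genes, which are not independent replicates.

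**Figure D1:**
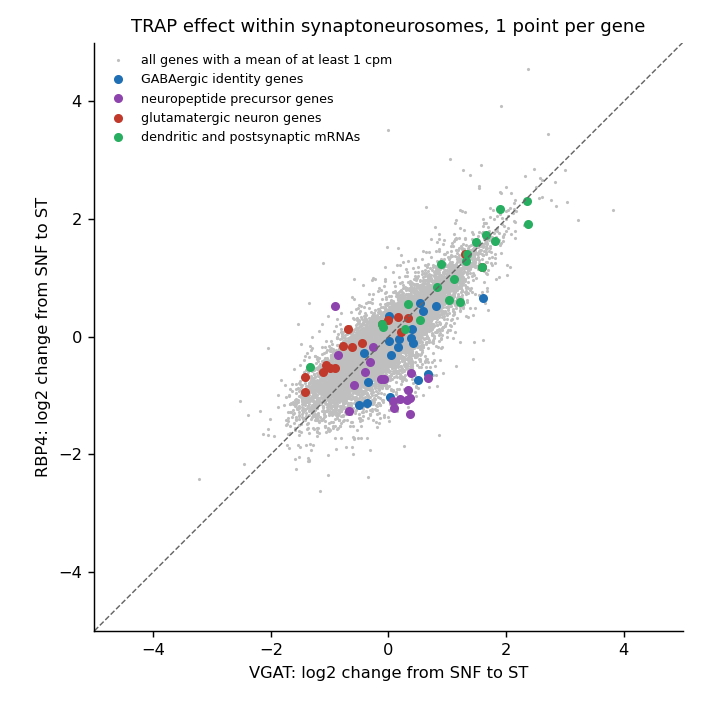
Log2 change from SNF to ST in VGAT TRAP (x axis) and RBP4 TRAP (y axis), 1 point for each of 13895 genes that averaged at least 1 cpm; colours mark 4 gene lists and the dashed line equal change. Most genes lie along the line (Pearson's r 0.85), dendritic and postsynaptic mRNAs at its upper end, while neuropeptide precursors and GABAergic identity genes lie mostly below it and glutamatergic neuron genes mostly above it.

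For the difference between the lines, 0 genes were called in either direction (0%). The smallest adjusted p was 0.99. At an unadjusted p under 0.05, 352 genes (2.10%) had the higher TRAP effect in RBP4 and 342 (2.04%) in VGAT, together 4.14%. DESeq2 called 0 genes too, with 327 and 335 at an unadjusted p under 0.05. The likelihood ratio test of edgeR called 0 genes with the higher effect in RBP4 and 4 with the higher effect in VGAT (Gm27008, Gm26609, Tert and Crhbp, named after their values were seen). Without a filter on low counts, edgeR's quasi-likelihood test called 11 and 17 genes, all 28 of which were among the genes of the main test, Sst (adjusted p 9.93e-05) and Cort (adjusted p 0.000509) among them. There the spread of each gene was taken wholly from the trend with abundance, with infinite prior degrees of freedom against 9.89 in the main fit, and the SE of Sst fell from 0.476 to 0.249. The median distance from a gene's line difference to either end of its 95% interval (unadjusted, as are all intervals here) was 0.79 on the log2 scale for genes at 1 to 10 cpm and 0.45 for genes at 10 to 100 cpm.

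In RBP4 TRAP the level of Sst was 533, 885, 532, 588 and 345 cpm in SNF and 338, 568, 188, 165 and 233 cpm in ST of replicates 1 to 5. In VGAT TRAP it was 691, 832, 568, 627 and 579 cpm in SNF and 343, 401, 1170, 1354 and 1828 cpm in ST. Every RBP4 pool was lower after TRAP, whereas VGAT pools 1 and 2 were lower and pools 3 to 5 higher, so that the pools of the lines overlapped. On the log2(cpm + 1) scale the change was -1.04 ± 0.58 in RBP4 (SD, n = 5) and 0.35 ± 1.28 in VGAT (SD, n = 5), a difference of -1.39 with an exact two-sided permutation p of 0.0794, where the smallest p this design allows is 0.00794. In edgeR Sst fell in the RBP4 line by 1.04 on the log2 scale (adjusted p 0.0258), was 0.37 higher in ST of the VGAT line (adjusted p 0.467), and had a line difference of -1.41 (SE 0.48, 95% interval -2.41 to -0.41, adjusted p 0.99).

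Cort went the same way as Sst, pool by pool. In RBP4 TRAP it stood at 8.35, 13.1, 11.5, 10.7 and 7.18 cpm in SNF and at 6.49, 8.62, 4.58, 4.75 and 6.65 cpm in ST. In VGAT TRAP it stood at 10.7, 11.7, 10.4, 11.6 and 10.98 cpm in SNF and at 8.77, 9.79, 21.9, 27.5 and 32.0 cpm in ST. Again all RBP4 pools were lower after TRAP, and VGAT pools 1 and 2 lower and 3 to 5 higher. The changes of -0.63 ± 0.46 and 0.63 ± 0.82 (SD, n = 5 each) differed by -1.26, with an exact two-sided permutation p of 0.0317 (Sst and Cort were the 2 genes tested in this way, and p is not adjusted for that). Leaving out 1 pool at a time gave an exact permutation p of 0.0159 to 0.0635, above 0.05 without RBP4 replicate 2, 3 or 4 or VGAT replicate 3, 4 or 5. The edgeR line difference was -1.38 (SE 0.36, 95% interval -2.14 to -0.62, adjusted p 0.99). In SNF, before capture, the lines differed by -0.19 for Sst and -0.12 for Cort (edgeR adjusted p 1 for both).

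**Figure D2:**
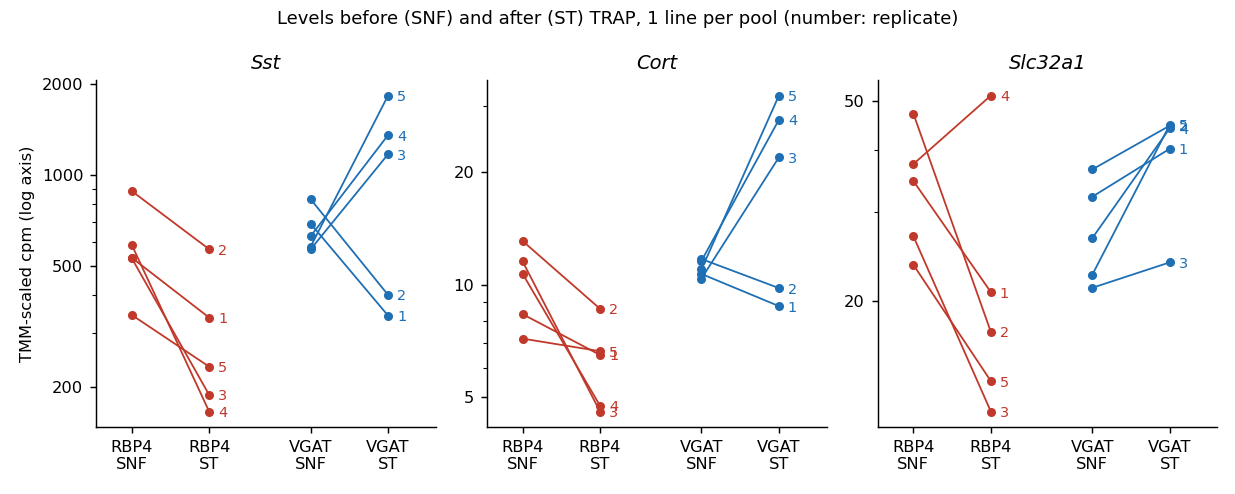
TMM-scaled cpm (log axis) of Sst, Cort and Slc32a1 in SNF and ST, 1 line per pool numbered by replicate, RBP4 TRAP in red and VGAT TRAP in blue. Sst and Cort go down in every RBP4 pool and in VGAT pools 1 and 2, and up in VGAT pools 3 to 5; for Slc32a1 only RBP4 pool 4 goes up within its line, to 51.3 cpm.

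The split of the VGAT pools was not peculiar to these genes, and was noticed only after the values were seen. A change below 0 in VGAT pools 1 and 2 and above 0 in pools 3 to 5 was found in 468 of 16779 genes (2.79%), in 9 of 18 neuropeptide precursors, in 11 of 19 interneuron subtype markers, in 5 of 19 GABAergic identity genes and in 6 of 23 striatal projection neuron genes. It was found in 0 of 7 cholinergic, 0 of 17 glutamatergic, 0 of 17 astrocyte and 0 of 19 oligodendrocyte genes. At the 2.79% of all genes, lists this short would hold few or none, so that these counts of 0 do not set the lists apart from all genes. Some genes are on more than 1 of these lists. In ST, VGAT pools 1 and 2 also had more counts, 18579472 and 18311840 against 14259535 to 14568701 in pools 3 to 5, and a higher summed level of endothelial and mural genes, 627 and 308 cpm against 156 to 164 cpm. The part of either in the split was not tested.

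Genes of the GABA system came next. Slc32a1, which loads GABA into vesicles, was at 34.7, 47.2, 26.9, 37.5 and 23.6 cpm in SNF and at 20.8, 17.3, 12.03, 51.3 and 13.8 cpm in ST of the RBP4 line. In the VGAT line it was at 32.2, 36.5, 21.2, 26.7 and 22.5 cpm in SNF and at 40.2, 44.7, 23.9, 44.2 and 44.8 cpm in ST. It was higher after TRAP in all 5 VGAT pools and lower in 4 of 5 RBP4 pools, replicate 4 being the exception. It fell in the RBP4 line (-0.73, adjusted p 0.0144), did not pass in the VGAT line (0.50, adjusted p 0.0738), and had a line difference of -1.23 (SE 0.29, adjusted p 0.99). Without RBP4 replicate 4 the line difference was -1.53 with an adjusted p of 0.0428, the only gene of 16729 called there. No other fit with 1 pool left out called a gene. That pool was singled out by its Slc32a1 level, so that the call follows from the gene's own values and adds no support.

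Gad1, which makes GABA, ran from 130 to 212 cpm in RBP4 ST and from 141 to 426 cpm in VGAT ST, groups that overlap, and its line difference of -0.35 (SE 0.25, 95% interval -0.87 to 0.18) spanned 0. Of the 19 GABAergic identity genes, all tested, 16 had the higher effect in the VGAT line, 3 of them at an unadjusted p under 0.05 (Slc32a1 and the transcription factor gene Dlx6 among them) against 2.04% of all genes, and 0 were in the other direction at that p. Without VGAT replicate 1 there were 8, without VGAT replicate 2 there were 7, with all 40 libraries 5 and without a filter on low counts 6. Over all genes the VGAT side had 308, 279, 273 and 527 in these fits, against 342 in the main fit. Their median line difference was -0.35, against -0.01 over all genes tested. Within the lines, 0 rose and 4 fell in RBP4, against 12.9% and 13.6% of all genes. In VGAT 4 rose and 0 fell, against 13.6% and 14.7%. Over all 16779 genes tested, 8623 had the higher effect in VGAT and 8156 in RBP4. Counts of direction in this and the other lists stand against these. In bulk RNA, fewer fragments from a cell type and less RNA in each cannot be told apart.

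Of the 15 lists, markers of interneuron classes had the largest share of members at an unadjusted p under 0.05. Of 19 subtype markers, 13 had the higher TRAP effect in VGAT at that p, against 2.04% of all genes, and 0 in RBP4, against 2.10%, with a median line difference of -0.77. In the RBP4 line 13 of them fell from SNF to ST, against 13.6% of all genes, and 0 rose. In the VGAT line 4 fell and 1 rose, against 14.7% and 13.6% of all genes. Crhbp, which binds corticotropin-releasing hormone and marks part of the Sst class, was at 38.2 to 93.0 cpm in SNF and 17.0 to 40.3 cpm in ST of the RBP4 line, and at 52.0 to 81.6 and 53.8 to 117 cpm in the VGAT line. ST minus SNF of Crhbp was higher in all 5 VGAT pools than in all 5 RBP4 pools, and its line difference was -1.28 (SE 0.27, adjusted p 0.99). Such separation was found in 58 of 16779 genes (0.346%), and in 0.232% in the other direction. With 5 pools per line, chance separates a gene in either direction at a rate of 0.00794, so that these shares together do not exceed chance. Crhbp was named in part for its separated pools, which therefore add no support. Reln, a secreted protein of superficial and dendrite-targeting interneurons, fell in both lines, by 1.26 on the log2 scale in RBP4 and by 0.57 in VGAT (adjusted p 2.85e-05 and 0.0151). The receptor tyrosine kinase gene Kit fell in both as well, by 1.51 and 0.94 (adjusted p 5.05e-07 and 2.94e-05). Without replicate 3 of both lines, or with no block for the pool, 9 of the 19 markers were at an unadjusted p under 0.05, and without RBP4 replicate 4 there were 13. All genes gave 437, 134 and 632 on the VGAT side in these fits, against 342 in the main fit.

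Neuropeptide precursors leaned the same way. Of 19 listed, 18 were tested (Nmu did not pass the filter), and 11 had the higher TRAP effect in VGAT and 1, Adcyap1, in RBP4 at an unadjusted p under 0.05, against 2.04% and 2.10% of all genes, with a median of -0.82. In the RBP4 line 11 fell, against 13.6% of all genes, and 0 rose. In the VGAT line 2 fell and 0 rose, against 14.7% and 13.6% of all genes. Without RBP4 replicate 4 the counts were 10 and 2, without replicate 3 of both lines 6 and 2, and with no block for the pool 8 and 1. Over all genes these fits had 632 and 777, 437 and 326, and 134 and 127, against 342 and 352 in the main fit. Several of these genes are interneuron markers too, and the lists are not independent of each other.

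Tac2, the precursor of neurokinin B, had the most negative line difference of the named peptides, -1.69 (SE 0.39, 95% interval -2.51 to -0.86, adjusted p 0.99). Its levels were 36.5, 50.5, 28.3, 43.5 and 27.5 cpm in SNF and 19.8, 18.2, 8.67, 13.3 and 15.3 cpm in ST of the RBP4 line. In the VGAT line they were 34.2, 36.0, 25.3, 33.0 and 29.1 cpm in SNF and 19.3, 20.5, 47.0, 73.7 and 73.9 cpm in ST. The least changed RBP4 pool lay at -0.81 and the most negative VGAT pool at -0.79, so that the pools of the lines were apart by a small margin.

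Vip, the peptide of a class of interneurons that inhibit other interneurons, was at 46.5 to 85.2 cpm in RBP4 ST and at 82.4, 120, 172, 372 and 307 cpm in VGAT ST. Its line difference was -1.17 (SE 0.34). Npy, neuropeptide Y, had a mean of 682 cpm over the 20 libraries and fell in the RBP4 line by 1.08 (adjusted p 0.0144), with a line difference of -1.39 (SE 0.44). Penk, the enkephalin precursor of striatal projection neurons and some interneurons, was at 352 to 659 cpm in SNF and 122 to 508 cpm in ST of the RBP4 line, and at 463 to 1090 and 487 to 1821 cpm in the VGAT line. It was lower after TRAP in all 5 RBP4 pools, fell by 1.07 on the log2 scale there (adjusted p 0.00147), and had a line difference of -1.26 (SE 0.31). Pnoc, the nociceptin precursor, had a line difference of -1.24 (SE 0.31), and Crh, which encodes corticotropin-releasing hormone, one of -1.30 (SE 0.45).

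Adcyap1, the PACAP precursor of many glutamatergic neurons, went the other way. It was at 37.4, 51.2, 28.0, 38.0 and 13.6 cpm in SNF and 32.3, 121, 28.3, 27.2 and 59.9 cpm in ST of the RBP4 line, and at 47.4, 60.3, 32.8, 44.6 and 41.5 cpm in SNF and 26.0, 32.1, 21.0, 26.9 and 15.7 cpm in ST of the VGAT line. It was lower after TRAP in every VGAT pool, and higher by more than 1 on the log2 scale in RBP4 pools 2 and 5 only. The line difference was 1.43 (SE 0.38, 95% interval 0.63 to 2.24, adjusted p 0.99).

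Genes that process and store peptides did not share the shift. Of 13 such genes, 10 had the higher effect in the RBP4 line, with a median of 0.19, and 1 was at an unadjusted p under 0.05 in each direction: Cadps2, a priming factor of dense-core vesicles (0.48, SE 0.22), and Pcsk1n, an inhibitor of the convertase PCSK1 (-0.49, SE 0.23). Leaving out 1 pool gave 0 to 2 and 0 to 1. The receptors of somatostatin and cortistatin had a median of 0.23 over the 4 that were tested (Sstr5 was not). Sstr2 was at 40.02 to 137 cpm in SNF and 22.9 to 139 cpm in ST of the RBP4 line and at 55.7 to 130 and 32.3 to 70.7 cpm in the VGAT line. It fell in the VGAT line by 1.03 (adjusted p 0.00104), with a line difference of 0.62 (SE 0.29), at an unadjusted p under 0.05 that was lost without RBP4 replicate 1, 2 or 5 or VGAT replicate 1, 2, 4 or 5.

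The VGAT driver is also active in striatal projection neurons, and their genes leaned to the VGAT line. Of 23 genes, 22 had the higher effect in VGAT, 11 of them at an unadjusted p under 0.05, against 2.04% of all genes, and 0 in the other direction, with a median of -0.47. In the RBP4 line 10 fell and 4 rose, against 13.6% and 12.9% of all genes. In the VGAT line 1 fell and 5 rose, against 14.7% and 13.6%. Adora2a, the adenosine receptor of the indirect pathway, was at 3.05 to 8.47 cpm in SNF and 1.003 to 6.47 cpm in ST of the RBP4 line, and at 3.58 to 10.97 and 5.29 to 22.7 cpm in the VGAT line. ST minus SNF was higher in all VGAT than in all RBP4 pools, though VGAT pool 2 and RBP4 pool 4 both stood at -0.34, and its line difference was -1.38 (SE 0.35, adjusted p 0.99). The dopamine receptor genes Drd1 of the direct pathway and Drd2 of the indirect pathway both fell in the RBP4 line, by 1.42 and 1.24 on the log2 scale (adjusted p 3.03e-05 and 0.00248). Drd1 fell in the VGAT line as well, by 0.70 (adjusted p 0.00898), while Drd2 stood at -0.23 there (adjusted p 0.551). Their line differences were -0.72 (SE 0.27) and -1.002 (SE 0.38). Tac1, the substance P precursor of direct pathway neurons, had a line difference of -0.999 (SE 0.30). The 11 genes at an unadjusted p under 0.05 became 13 without RBP4 replicate 4, 6 without VGAT replicate 4, 7 without VGAT replicate 5, 5 without replicate 3 of both lines or with all 40 libraries and 2 without the pool as a block. Counts over all genes on the VGAT side moved too, from 342 to 632, 301, 238, 437, 273 and 134 in the same order.

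Genes of the forebrain's cholinergic neurons were low throughout, their summed level being at most 47.5 cpm in any of the 20 libraries. Of 8 listed genes 7 were tested, all 7 with the higher effect in the VGAT line and 2 at an unadjusted p under 0.05, against 2.04% of all genes, with a median of -0.75. Without VGAT replicate 2 there were 4, and without the pool as a block 0. All genes gave 279 and 134 on that side in these fits, against 342 in the main fit. Slc18a3, the vesicular acetylcholine transporter, was at 0.54 to 4.31 cpm in RBP4 ST and 1.74 to 5.55 cpm in VGAT ST, and had a line difference of -1.33 (SE 0.41).

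Genes of glutamatergic neurons leaned to the RBP4 line. Of 17, 14 had the higher effect there, 5 at an unadjusted p under 0.05 (among them Slc17a7, Slc17a6, Sv2b and Kcnv1) against 2.10% of all genes, and 0 in the other direction, with a median of 0.38. There were 3 without RBP4 replicate 2 or 5, 2 without VGAT replicate 5, with all 40 libraries or with no block for the pool, 2 with 1 in the other direction with library sizes alone, 8 without a filter on low counts, and 6 with 1 in the other direction without RBP4 replicate 4. All genes on the RBP4 side numbered 165, 241, 217, 502, 127, 112, 577 and 777 in the same order, against 352 in the main fit. In RBP4 2 rose and 6 fell, against 12.9% and 13.6% of all genes. In VGAT 2 rose and 9 fell, against 13.6% and 14.7%, so that the lean came with falls in both lines. Slc17a7, the vesicular glutamate transporter of cortical pyramidal neurons, was at 711, 948, 799, 968 and 532 cpm in SNF and 581, 1129, 756, 909 and 985 cpm in ST of the RBP4 line. In the VGAT line it was at 926, 1171, 768, 745 and 740 cpm in SNF and 676, 700, 651, 375 and 365 cpm in ST. It was lower after TRAP in all 5 VGAT pools, where it fell by 0.69 on the log2 scale (adjusted p 0.00701), and without one direction in the RBP4 pools (0.13, adjusted p 0.63). Its line difference was 0.82 (SE 0.25, 95% interval 0.29 to 1.35, adjusted p 0.99). Kcnv1, a modifier subunit of potassium channels, fell in both lines, by 0.69 and 1.42 (adjusted p 0.0086 and 1.18e-05), with a line difference of 0.74 (SE 0.25).

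Layer 5 genes, those nearest to the cells of the RBP4 driver, differed less. Of 22, 15 had the higher effect in the RBP4 line, 4 at an unadjusted p under 0.05 (Ldb2, Npr3, Il1rapl2 and Scnn1a), against 2.10% of all genes, and 0 in the other direction, with a median of 0.18. There were 2 without RBP4 replicate 2 or with no block for the pool, 2 with 1 in the other direction without RBP4 replicate 5, and 6 with 2 in the other direction without RBP4 replicate 4. Over all genes the RBP4 side had 165, 127, 241 and 777 in these fits, against 352 in the main fit. Fezf2, the selector gene of subcerebral projection neurons, was at 18.0, 18.3, 12.03, 20.0 and 45.1 cpm in ST of RBP4 replicates 1 to 5, and between 13.0 and 18.6 cpm in VGAT ST. RBP4 replicates 4 and 5 were above the VGAT range, replicate 3 was below it and the others lay within it, and the line difference was 0.45 (SE 0.26, 95% interval -0.10 to 0.998). Npr3, a clearance receptor of natriuretic peptides, fell in the VGAT line by 0.85 (adjusted p 0.0124) and stood at 0.04 in RBP4 (adjusted p 0.924), with a line difference of 0.89 (SE 0.33). Rbp4, whose promoter drives the transgene, had ST levels of 21.0, 38.5, 10.96, 12.2 and 22.4 cpm in RBP4 and 22.5, 25.0, 47.6, 59.9 and 64.9 cpm in VGAT, and a line difference of -0.73 (SE 0.37, 95% interval -1.50 to 0.05). Genes of the other cortical layers had a median of -0.04 over 16 genes, 0 of which were at an unadjusted p under 0.05.

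**Figure D3:**
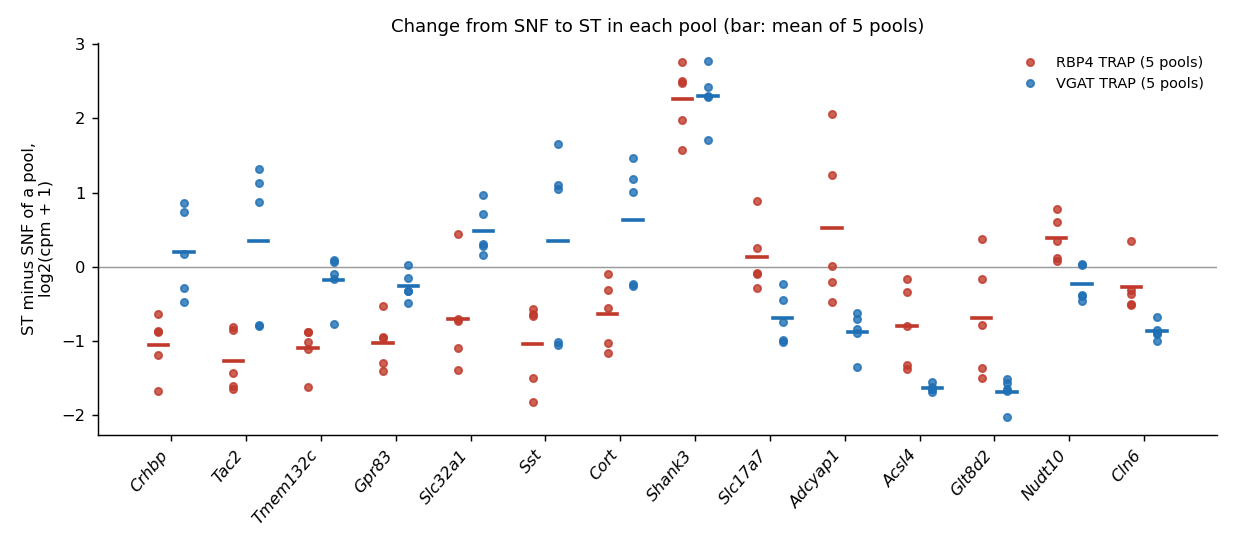
ST minus SNF of each pool on the log2(cpm + 1) scale for 14 named genes, 5 pools per line (points) with their mean (bar), RBP4 TRAP in red and VGAT TRAP in blue. Crhbp, Tac2, Tmem132c and Gpr83 have all VGAT pools above all RBP4 pools, Adcyap1, Acsl4, Glt8d2, Nudt10 and Cln6 the reverse, Sst and Cort overlap, and Shank3 is raised to about the same extent in both lines (means 2.26 and 2.30).

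Dendritic and postsynaptic mRNAs rose with TRAP in both lines. Of 20, 15 rose and 1 fell in the RBP4 line, against 12.9% and 13.6% of all genes. In the VGAT line 14 rose and 1 fell, against 13.6% and 14.7%. The median changes were 1.09 and 1.17, and the median line difference was -0.000616. Shank3, a scaffold of the postsynaptic density, went from 22.3, 21.8, 24.7, 23.6 and 15.1 cpm in SNF to 90.5, 67.0, 145, 167 and 88.8 cpm in ST of the RBP4 line. In the VGAT line it went from 24.6, 23.1, 25.8, 21.0 and 20.8 cpm to 137, 117, 183, 107 and 70.6 cpm. Every pool of both lines was higher after TRAP, with no overlap between SNF and ST. It rose by 2.31 and 2.35 on the log2 scale (adjusted p 1.84e-07 and 1.47e-07), and its line difference of -0.04 had a 95% interval of -0.55 to 0.47. Dlg4, which encodes PSD-95, rose by 0.99 and 1.11 (adjusted p 5.62e-05 and 1.37e-05), with a line difference of -0.12 (95% interval -0.54 to 0.30).

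At an unadjusted p under 0.05, 1 of the 20 had the higher effect in each line. Without RBP4 replicate 4 there were 3 on the VGAT side, where the count over all genes went from 342 to 632. There were 0 on that side without RBP4 replicate 2, 3 or 5 or VGAT replicate 1 or 4. Shank1 was at 569.5 to 1590 cpm in RBP4 ST and 1098 to 1719 cpm in VGAT ST, with a line difference of -0.63 (SE 0.28), as RBP4 pools 2 and 3 changed by only 0.09 and 0.08. Bdnf, the neurotrophin made by pyramidal neurons, was the 1 gene of the list that fell in both lines, by 0.52 and 1.33 (adjusted p 0.0415 and 2.67e-05), with a line difference of 0.81 (SE 0.26).

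The genes with the smallest p whose pools did not overlap are given with no call. On the VGAT side Crhbp and Tac2, described above, were among them, with Tmem132c and Gpr83. Tmem132c went from 8.89 to 13.5 cpm in SNF to 3.70 to 6.08 cpm in ST of the RBP4 line and from 10.2 to 14.7 cpm to 8.18 to 14.8 cpm in the VGAT line. Its RBP4 groups did not overlap, and its VGAT groups did. The membrane protein gene Tmem132c and the orphan receptor gene Gpr83 had line differences of -1.05 (SE 0.25) and -0.79 (SE 0.20), and each fell in the RBP4 line (adjusted p 5.72e-05 and 3.08e-05).

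On the RBP4 side they were Adcyap1, Acsl4, Glt8d2, Nudt10 and Cln6. Acsl4, a ligase that activates arachidonic acid, went from 264 to 451 cpm in SNF to 83.3 to 147 cpm in ST of the VGAT line, with changes of -1.55 to -1.69 in the 5 pools, and from 182 to 445 cpm to 104 to 363 cpm in the RBP4 line, with changes of -0.17 to -1.38. It fell in both lines (adjusted p 1.61e-06 and 0.00163), and its line difference was 0.83 (SE 0.23). Glt8d2, a glycosyltransferase gene, had a line difference of 1.10 (SE 0.34) and fell in both lines too (adjusted p 0.0309 in RBP4 and 1.50e-05 in VGAT). Nudt10, an inositol polyphosphate phosphatase gene, and Cln6, a gene of the endoplasmic reticulum mutated in a lysosomal disease, had line differences of 0.65 (SE 0.20) and 0.63 (SE 0.20). In 39 of 16779 genes (0.232%) ST minus SNF was higher in all RBP4 than in all VGAT pools, which is not above the chance rate given for Crhbp.

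A pair of genes that the study discusses stood outside these groups. Gsr, glutathione reductase, was at 16.2 to 26.8 cpm in RBP4 ST and 11.2 to 16.6 cpm in VGAT ST, with a line difference of 0.34 (SE 0.20, 95% interval -0.08 to 0.77). Capn11, a calpain gene, had 0, 0, 0, 0.06 and 0.06 cpm in RBP4 ST and 1.03, 1.502, 0.43, 0.99 and 2.14 cpm in VGAT ST. It was lower in RBP4 before TRAP too, at 0.07 to 0.57 cpm in SNF against 0.12 to 1.15 cpm. At these levels 1 count is worth 0.055 to 0.061 cpm in the RBP4 ST libraries with a count, and the fitted line difference of -3.15 (SE 0.91) depends on the prior count.

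Genes of other cell types that a synaptoneurosome band holds were counted the same way. At an unadjusted p under 0.05, 0 of 17 astrocyte, 0 of 19 oligodendrocyte lineage, 0 of 13 microglia and 0 of 13 endothelial and mural genes differed in either direction, with medians of -0.20, 0.16, -0.32 and 0.58. Of all genes, 2.10% had the higher effect in RBP4 and 2.04% in VGAT at that p. All 13 endothelial and mural genes had the higher effect in RBP4, and their summed level in RBP4 ST ran from 150 to 1268 cpm with a median of 196 cpm, the highest being replicate 2. Without RBP4 replicate 2 their median was 0.08. Without VGAT replicate 1, whose line is then left without its highest ST sum, it was 1.05, with 5 of 13 at an unadjusted p under 0.05. In the latter fit 237 of all 16708 genes had the higher effect in RBP4 at that p. The summed level of astrocyte genes ran from 9263 to 37070 cpm in RBP4 ST and from 12100 to 33810 cpm in VGAT ST, and that of microglia genes from 165 to 635 and from 459 to 965 cpm. The summed level of oligodendrocyte lineage genes was higher after TRAP in both lines, with no overlap. It was 14870 to 24000 cpm in SNF and 32850 to 50650 cpm in ST of the RBP4 line. In the VGAT line it was 17870 to 22980 cpm in SNF and 32870 to 49680 cpm in ST. By gene, 5 of the 19 rose and 10 fell in RBP4, against 12.9% and 13.6% of all genes. In VGAT 5 rose and 11 fell, against 13.6% and 14.7%. Without RBP4 replicate 4, 6 of 13 microglia genes had the higher effect in VGAT and 1 in RBP4 at that p, and 1 astrocyte and 1 oligodendrocyte gene had it in VGAT. More genes of any kind were at that p in this fit, 632 of 16729 on the VGAT side and 777 on the RBP4 side. The part of these cells in the neuronal differences was not tested.

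Before TRAP the lines were alike to the extent that 2 of 16779 genes (0.0119%) differed in SNF, Wdfy1 (1.39 higher in RBP4, adjusted p 0.0306) and Gm4737 (-4.80, adjusted p 0.0437), which are named because the count is small. At an unadjusted p under 0.05 there were 303 and 182. The median difference in SNF was -0.15 over the GABAergic identity, -0.13 over the interneuron, -0.21 over the neuropeptide and -0.09 over the glutamatergic genes. These medians were smaller in size than those of the same lists in the TRAP effect. That was not so for microglia genes, at -0.32 in both, or for dendritic and postsynaptic mRNAs, near 0 in both. Endothelial and mural genes had -0.41 in SNF and 0.58 in the TRAP effect. SNF is itself a term of the line difference, so that the values are not independent, and the part of SNF in the leaning was not tested.

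The same difference of differences was taken in the homogenate, as (TRAP minus WCH in RBP4) minus (TRAP minus WCH in VGAT), where WCH is the whole cell homogenate of the same pools. In a fit of all 40 libraries and 17728 genes, 1341 genes (7.56%) had the higher effect in RBP4 and 1413 (7.97%) in VGAT, whereas 0 were called in synaptoneurosomes, with 502 and 273 at an unadjusted p under 0.05. A direct test of synaptoneurosomes against homogenate called 568 genes (3.20%) with the higher and 357 (2.01%) with the lower line difference in synaptoneurosomes. For Sst the line difference was -3.96 in the homogenate, and that in synaptoneurosomes was less negative by 2.52 (SE 0.61, adjusted p 0.00916). For Cort these values were -3.44 and 2.04 (SE 0.50, adjusted p 0.00896), and for Slc32a1 -4.65 and 3.502 (SE 0.56, adjusted p 7.90e-05).

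The direction was partly kept. Of the 1341 genes with the higher effect in RBP4 in the homogenate, 77.9% had the same sign in synaptoneurosomes, against 54.8% of all genes, and their medians were 1.35 and 0.24. Of the 1413 with the higher effect in VGAT, 65.3% had the same sign, against 45.2% of all genes, with medians of -1.58 and -0.11. Both sets were selected by their homogenate values, which enlarges the homogenate medians. The medians therefore do not measure how much of the difference was kept. At an unadjusted p under 0.05 with the same sign there were 133 (9.92%, against 2.83% of all genes) and 76 (5.38%, against 1.54%). Across 14007 genes the line differences of the fractions had a Pearson's r of 0.31 and a Spearman's rho of 0.26, where both fractions of a line came from the same pools.

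By list, the homogenate medians were -4.48 for GABAergic identity, -3.44 for interneuron, -3.16 for neuropeptide and -3.35 for striatal projection neuron genes, and 2.63 for glutamatergic and 0.96 for layer 5 genes. By the direct test the line difference was higher in synaptoneurosomes in 18 of 19 GABAergic identity, 16 of 19 interneuron and 21 of 23 striatal genes. It was lower there in 10 of 17 glutamatergic genes. Over all genes 3.20% were higher and 2.01% lower. Neuropeptide and layer 5 genes were mixed, with 12 higher and 2 lower of 18, and 2 higher and 7 lower of 22. The 5 genes with the smallest p in each direction were Dlx1 (4.65), Syndig1l (3.84), Pcp4l1 (4.03), Six3 (5.41) and Sp9 (5.08), of which Dlx1, Six3 and Sp9 are transcription factors of developing GABAergic neurons, and Pstpip1 (-3.88), Capn3 (-3.40), Plb1 (-2.96), Adamtsl2 (-2.41) and Lct (-3.02).

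**Figure D4:**
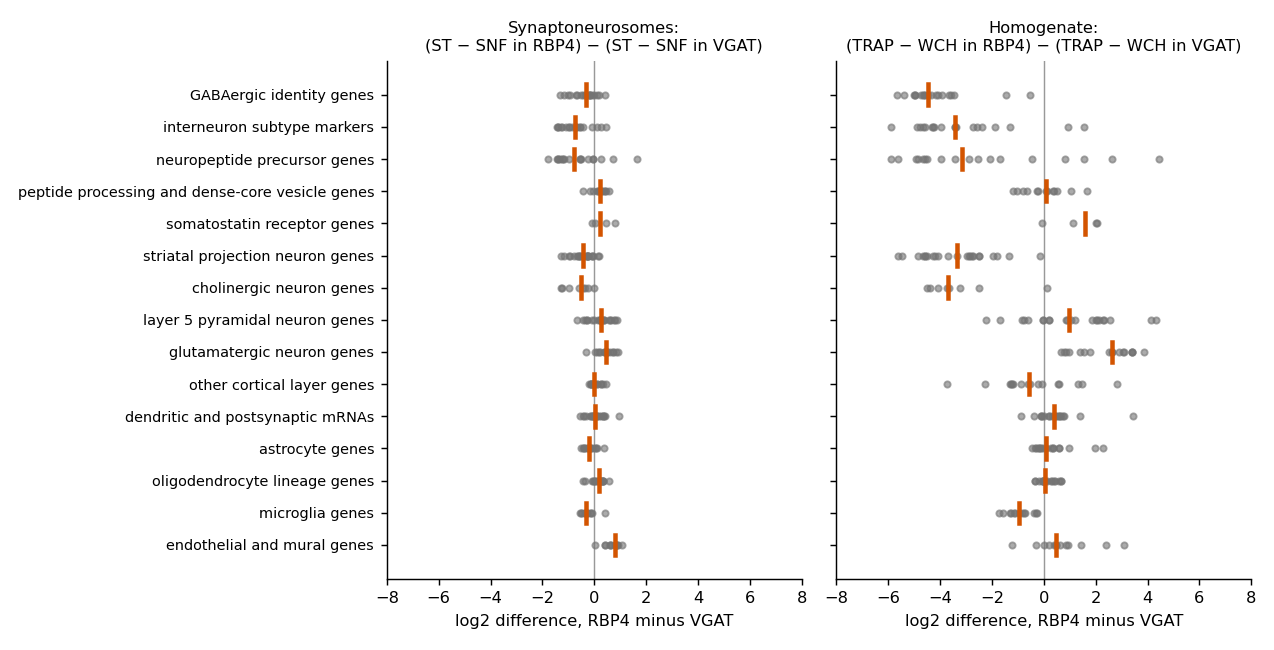
Line difference in the TRAP effect (log2, RBP4 minus VGAT) in synaptoneurosomes (left) and in the homogenate (right) for 15 gene lists from the fit of 40 libraries, 1 grey point per gene with the median as an orange bar. The lists of GABAergic neurons lie between -4.48 and -3.16 in their homogenate medians and much nearer to 0 in synaptoneurosomes, on the same side of 0.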

How the data were processed

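Processed files of 20 libraries (SNF and ST of 5 pools per line) were used, with 20 homogenate libraries for 1 comparison. The authors aligned reads with STAR 2.0.4b to an Ensembl assembly and made raw gene counts with featureCounts 1.4.5, from reads that aligned to a single place and belonged to a single gene. The CPM and RPKM values that the authors deposited beside the counts were not used in any test. Whether counting used strand is not given in the sources used here.

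Genes on the mitochondrial chromosome and those annotated as rRNA or tRNA (GENCODE M21) were left out. Line differences were fitted with edgeR 4.0.16 (R 4.3.3, quasi-likelihood test, TMM factors, 8 residual degrees of freedom), with the pool as a block and Benjamini-Hochberg adjustment over all genes tested. The block follows from the study's design: deviations of ST and SNF from their group means had a mean correlation of 0.41 (RBP4) and 0.49 (VGAT) within a pool, and -0.10 and -0.12 between pools. Sst and Cort were also compared by pool with exact permutation tests on log2(cpm + 1). A trial of the test on simulated counts is not reported here, and no result rests on it. Printed levels are TMM-scaled cpm.

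The genes and all 15 lists were chosen with earlier results of these data known. Named genes are, by smallest p, 5 on either side with a mean of 1 cpm or more and pools that do not overlap; up to 4 per list by p; a set given by the study's design and text; and 5 in each direction from the test against the homogenate. Others named for a list are members at an unadjusted p under 0.05. DESeq2 1.42.0, a likelihood ratio test, other scalings and filters, no block, all 40 libraries, and leaving out each pool were the alternatives. A few withheld results are not reported here.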

Additional observations from a re-analysis of the deposited data

Results flagged for a closer look

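Of 170 groups of 5 pools or libraries examined, 14 (8.24%) held 1 value far from the other 4, where chance gives about 1 in 20. In the change from SNF to ST on the log2(cpm + 1) scale, the distant RBP4 pool was replicate 5 for Cln6 (0.346), Slc17a6 (-0.431) and Capn11 (-0.564), replicate 2 for Dlx5 (0.0758) and Esam (2.31), replicate 4 for Capn3 (0.594), and replicate 3 for Drd1 (-2.10), Plb1 (-0.910) and Adamtsl2 (-0.522). In the VGAT line it was replicate 4 for Slc10a4 (-0.0168) and replicate 3 for Rpl10a (-0.622). The mitochondrial share of replicate 3 stood far above the rest of its group in RBP4 SNF (40.2%), VGAT SNF (41.9%) and VGAT ST (19.0%).

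The line difference in the TRAP effect differed between synaptoneurosomes and homogenate, by a direct edgeR test at an adjusted p of at most 0.05, for Cort (2.04), Sst (2.52), Dlx1 (4.65), Syndig1l (3.84), Pcp4l1 (4.03), Six3 (5.41) and Sp9 (5.08) upwards and for Pstpip1 (-3.88), Capn3 (-3.40), Plb1 (-2.96), Adamtsl2 (-2.41) and Lct (-3.02) downwards, as log2 values.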

How the results depend on the processing

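Over 22 alternatives, 81 of 86 named genes kept the direction of their line difference in every one, and 73 were never called. The alternatives reuse most of the same libraries, and many of the genes were named for a small p in them. Kept directions were therefore to be foreseen and do not test the differences. The main count of 0 higher and 0 lower became 0 and 4 with the likelihood ratio test and 11 and 17 without a filter on low counts, and 0 to 1 lower when 1 pool was left out. At an unadjusted p under 0.05, the main 352 higher (in RBP4) and 342 lower became 112 and 678 with library sizes alone, which moved the median of all genes from -0.01 to -0.13, and 577 and 527 without the filter. With 1 pool left out they ran from 165 to 777 higher and from 238 to 632 lower; the extremes above were without RBP4 replicate 4 (777 and 632), and the higher count was 165 without RBP4 replicate 2, 208 without VGAT replicate 2 and 217 without VGAT replicate 5.

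The pools pair ST and SNF. With no replicate block the counts were 127 and 134, the TRAP effect had 1261 higher and 832 lower in RBP4 and 1359 and 1298 in VGAT, and 226 genes were lower in the test against the homogenate. Between the lines, changes of pools with equal numbers had a mean correlation of -0.01, although replicate 3 of both lines had the highest mitochondrial shares. A replicate number by TRAP term beside the block, chosen after seeing the data, gave 703 and 571 in RBP4 and 955 and 961 in VGAT. The difference from the homogenate had 214 to 497 lower genes with 1 pool left out, with 227, 214 and 234 without VGAT replicates 1, 2 and 4.

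In SNF between the lines, 1 higher and 1 lower became 3 and 2 (likelihood ratio), 4 higher (DESeq2), 0 and 0 (library sizes alone), 2 higher (no filter), 0 lower (1 cpm in 5 libraries), 2 lower (40 libraries), 2 and 0 (block crossed over both lines), and 0 to 3 and 0 to 1 with 1 pool left out. The Cort difference by pool ranged from -1.49 to -1.06 with 1 pool left out.

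Directions turned for values near 0. With 1 replicate left out of 1 or both lines (both: replicate 3, added after seeing the data), Sp9 ran from -0.0921 to 0.191, Sstr3 from -0.194 to 0.114, Sstr1 from -0.272 to 0.0338 and Shank3 from -0.185 to 0.138. With library sizes alone Sp9 was -0.0798 and Adamtsl2 -0.0521, and Sstr3 was 0.0290 with no replicate block and 0.0181 with 40 libraries. The cause was not tested. The unadjusted 95% interval reached a median of 0.45 to either side at 10 to 100 cpm, 0.79 at 1 to 10 cpm and 1.68 under 1 cpm. No gene passed the adjustment over all genes, Tac2 with -1.69 included.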
